A study of Homo sapiens with 12 samples.

Results

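The transcripts of 10 core circadian clock genes, PER1, PER2, PER3, CRY1, CRY2, ARNTL, CLOCK, NR1D1, NR1D2 and DBP, were followed in LNCaP cells, a line derived from human prostate cancer that responds to androgen. They were chosen by name, as core genes of the clock, from the 34643 gene symbols of the RNA-seq table, by a rule that uses no measured value, although earlier results of these data were known. All 10 were among the 15419 genes abundant enough to be tested. Cells carried a lentiviral pLKO.1-puro vector with a U6 promoter, which drove a scramble shRNA in the control line (sh_scramble) and an shRNA that targets TMEFF2 in the other (sh_TMEFF2), and all had been selected in puromycin. The labels place the treatment about 2.5 weeks after transduction, while the paper's methods state a shorter growth before it. All cells spent 24 h in medium with charcoal-stripped serum, which depletes androgen. They were then kept 24 h in ethanol vehicle (−DHT) or in 10 nM of the androgen dihydrotestosterone (+DHT). Each line was sequenced in both states, which makes 4 groups of 3 libraries, from separate treatments and extractions that go back to 2 transductions. Which library belongs to which transduction, and which TMEFF2 shRNA the sequenced cells carried, are not given in the sources used here.

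The mammalian clock is a feedback loop of transcription. CLOCK and ARNTL (also called BMAL1) form a dimer that binds E-box sequences and activates the PER, CRY, NR1D and DBP genes. The PER and CRY proteins then return to the nucleus and block the dimer, while NR1D1 and NR1D2 (the REV-ERB receptors) repress ARNTL and CLOCK through elements shared with the activating ROR receptors. DBP activates genes through D-boxes, among them PER genes. The loop runs in most cell types, prostate cells included, and serum and hormones can reset its phase. All libraries were taken at a single time after stimulation, so a change in the level of a clock transcript and a shift in its phase cannot be told apart here.

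With DHT, PER3, CRY2, NR1D2 and DBP fell and PER1 rose in sh_scramble cells, whereas in sh_TMEFF2 cells CRY2 was the member that passed the same limits. Of all genes tested, 11.9% passed these limits in sh_scramble and 4.88% in sh_TMEFF2. When the responses of the lines were tested against each other, 0 of the 10 passed, where 4.94% of all genes did. The 5 calls in sh_scramble dropped to 2 or to 3 when 1 of 2 particular libraries was left out. PER3 and NR1D2 were also lower with DHT in sh_TMEFF2, with adjusted p-values under 0.05 and changes short of 1.5-fold, and for NR1D2 that p was lost without any of 4 libraries. PER1 stood apart from its paralogs. It was 1.85-fold higher with DHT in sh_scramble and was near its starting level in sh_TMEFF2, so that with DHT it was 2.12-fold lower in sh_TMEFF2 than in sh_scramble. The activators CLOCK and ARNTL were not called in any comparison.

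The start regions of the 10 genes hold different clock elements. RefSeq windows on GRCh38.p14, from 250 bases before to 50 bases after an annotated start, were found for all 10 genes, ARNTL under the name BMAL1, in 15 windows, since 5 of the genes have more than 1 annotated start. They were searched on both strands for the E-box CACGTG, the variant E-prime box CACGTT, the D-box TTANGTAA and a REV-ERB and ROR element, AANTN followed directly by GGTCA. The same windows were also searched for AGAACA, which is part of an androgen element and not a clock element. No match overlapped another match. The 4 windows shown are PER1, PER2, the PER3 start that holds a match and the NR1D2 start that holds the most matches. Of these PER paralogs, PER1 rose and PER3 fell with DHT in sh_scramble, and PER2 was not called. Each window is printed 5′ to 3′ from 250 bases before to 20 bases after the start, with the matches in capitals. PER1 is read from chr17:8152385-8152654 on the minus strand, PER2 from chr2:238288591-238288860 on the minus strand, PER3 from chr1:7784041-7784310 on the plus strand, and NR1D2 from chr3:23945871-23946140 on the plus strand.
PER1: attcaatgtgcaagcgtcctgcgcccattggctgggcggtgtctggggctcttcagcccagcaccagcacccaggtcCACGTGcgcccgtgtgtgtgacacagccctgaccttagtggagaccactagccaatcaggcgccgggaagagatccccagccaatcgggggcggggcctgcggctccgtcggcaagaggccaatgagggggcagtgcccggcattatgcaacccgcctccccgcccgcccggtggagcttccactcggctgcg
PER2: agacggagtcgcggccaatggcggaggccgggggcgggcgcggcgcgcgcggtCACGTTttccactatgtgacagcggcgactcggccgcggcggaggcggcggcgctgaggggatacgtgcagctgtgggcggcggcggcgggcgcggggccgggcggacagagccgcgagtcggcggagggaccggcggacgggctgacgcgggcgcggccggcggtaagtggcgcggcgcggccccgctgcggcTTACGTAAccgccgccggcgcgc
PER3: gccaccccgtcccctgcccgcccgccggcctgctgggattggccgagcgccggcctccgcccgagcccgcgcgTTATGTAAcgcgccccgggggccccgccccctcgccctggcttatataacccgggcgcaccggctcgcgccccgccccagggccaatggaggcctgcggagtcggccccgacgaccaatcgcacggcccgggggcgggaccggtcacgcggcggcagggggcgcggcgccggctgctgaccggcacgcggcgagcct
NR1D2: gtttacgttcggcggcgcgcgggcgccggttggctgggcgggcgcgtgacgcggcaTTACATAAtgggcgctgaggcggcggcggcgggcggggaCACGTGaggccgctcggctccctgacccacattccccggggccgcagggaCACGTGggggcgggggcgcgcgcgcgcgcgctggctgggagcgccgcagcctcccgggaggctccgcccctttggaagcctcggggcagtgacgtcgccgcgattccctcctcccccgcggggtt
PER1 has an E-box that begins 173 bases before its start. PER2 has an E-prime box 197 bases before and a D-box that begins 3 bases before its start, and PER3 has a D-box 177 bases before the start shown. The window of the other PER3 start held no match. NR1D2 has E-boxes 155 and 105 bases before this start, and a D-box 194 bases before it. Single E-prime boxes lie 89 bases before a start of CRY1, 188 before one of CRY2, 168 before that of NR1D1 and 187 before one of CLOCK, and the REV-ERB and ROR element lies 217 bases before that same CLOCK start and begins 27 bases after one of ARNTL. None of these letters occurred in the DBP window. E-boxes were thus found in 2 of the 15 windows, E-prime boxes in 5, D-boxes in 3 and the REV-ERB and ROR element in 2. Of 35116 windows of the same length in the whole table, 7.26% held the E-box, 5.34% the E-prime box, 2.18% the D-box and 0.581% the REV-ERB and ROR element. AGAACA was absent from all 15 windows of the clock genes, while 14.8% of the 35116 windows held it. This difference was not tested. A match is a description of the sequence and not a site shown to be bound in these cells. Sequence outside the windows was not searched, and a link between the elements and the DHT responses was not tested.

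Levels are given as TMM-normalized CPM, the estimated counts of a gene scaled to a common library size. Libraries totalled 19450866 to 22612046 counts. TMEFF2 mRNA, the shRNA target, was lower on average in sh_TMEFF2, but the lines overlapped at both DHT states and the log2 differences of −0.43 without and −0.41 with DHT did not pass (edgeR's adjusted p = 0.503 and 0.304), so the mRNA in these libraries does not separate the lines by itself. The paper reports by Western blot that some of its TMEFF2 shRNAs clearly lowered the protein in LNCaP cells. It also cites a separate measurement of the mRNA for this silencing. KLK3 and FKBP5, which androgens induce, were higher with DHT in every library of both lines, by different amounts. FKBP5 was 10.4-fold higher with DHT in sh_scramble and 1.85-fold higher in sh_TMEFF2 (difference of the log2 values −2.50, edgeR's adjusted p = 8.4e-05), and KLK3 was 5.403-fold lower in sh_TMEFF2 than in sh_scramble without DHT and 3.85-fold lower with it (edgeR's adjusted p = 2.8e-04 and 8.3e-05). All 7 luminal prostate markers were present in all libraries, at 79.7 CPM or more, whereas of 3 basal markers KRT5 was at 0 in all 12 libraries, and KRT14 and TP63 did not exceed 1.46 and 0.45 CPM. The summed basal markers were at 0.88 to 1.77 CPM in sh_scramble +DHT and at 0.502 CPM or less in the other groups. The summed luminal markers ran from 6415 to 6686 CPM in sh_scramble −DHT, 12250 to 12980 in sh_scramble +DHT, 4247 to 4732 in sh_TMEFF2 −DHT and 5046 to 6091 in sh_TMEFF2 +DHT, and since androgen-induced genes are among them, their part in the results was not tested. In bulk RNA, fewer expressing cells and less RNA per cell cannot be told apart.

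The 10 genes were expressed at low to moderate levels. Between genes, CPM was divided by the length in kilobases of the main transcript in the GENCODE annotation, which can differ from the transcripts used in these cells. On this scale NR1D2 was the highest in sh_scramble −DHT, with 20.8 ± 1.56 CPM per kilobase (SD, n = 3), followed by CRY1 with 12.4 ± 0.766. The libraries of these genes did not overlap in that group, but they did in sh_scramble +DHT, where NR1D2 ran from 11.7 to 15.1 and CRY1 from 12.8 to 14.4. PER3 (6.68 ± 0.398), CLOCK (5.93 ± 0.240) and CRY2 (5.47 ± 0.701) came next in sh_scramble −DHT, and CRY2 overlapped CLOCK. DBP, PER1, ARNTL and PER2 lay between 2.93 and 3.68 on average, and NR1D1 was the lowest with 2.58 ± 0.292. By group mean NR1D1 was the lowest in all 4 groups, and NR1D2, its paralog, was the highest in all 4.

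**Figure D1:**
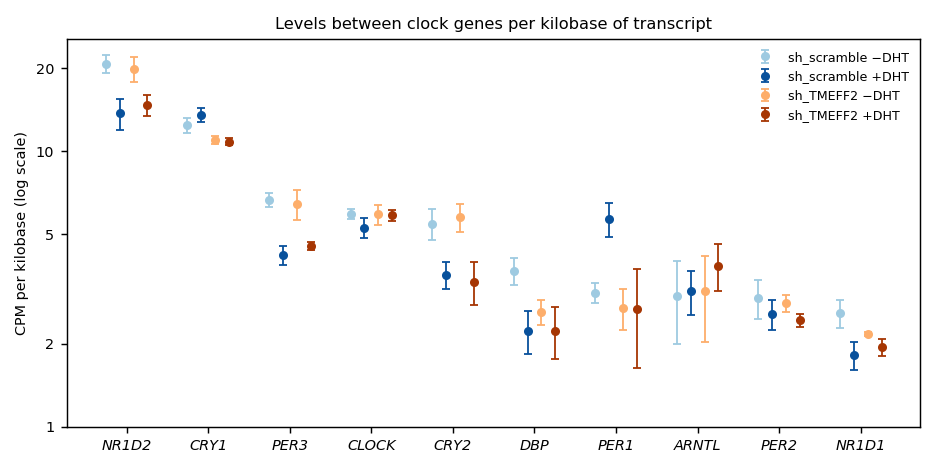
Level of each clock gene in CPM per kilobase of its main annotated transcript (log scale), as the mean of 3 libraries with the SD as error bar, for the 4 groups. NR1D2 and CRY1 are the highest of the 10 genes in every group, and PER1 ranks 3 in sh_scramble +DHT at 5.69 but at 2.68 in sh_TMEFF2 +DHT.

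A gene was called changed where its fold change reached 1.5 and its adjusted p did not exceed 0.05 (edgeR's quasi-likelihood test, Benjamini-Hochberg over 15419 genes). With DHT in sh_scramble, 5 of the 10 clock genes were called, 1 higher and 4 lower. Of all genes tested, 11.9% were called in this comparison, 5.45% as higher and 6.45% as lower. The median log2 fold change of the 10 was −0.35, beside −0.01 for all genes. In sh_TMEFF2, 1 of the 10 was called, as lower, where 4.88% of all genes were called, 1.6% as lower, and the median was −0.18 beside −0.02 for all genes. On the adjusted p alone, whatever the fold, 6 clock genes passed in sh_scramble and 3 in sh_TMEFF2, and 27% and 13.1% of all genes did, of which 12.6% and 5.21% as lower. The 3 were PER3, CRY2 and NR1D2, which are among the 6, and each was lower with DHT in both lines. The 2 comparisons have no library in common, but they share the fit over all 12 libraries, and the repeats go back to 2 transductions. NR1D1 and DBP in sh_scramble and NR1D2 in sh_TMEFF2 did not pass the adjusted p of 0.05 under every alternative. The groups with and without DHT did not overlap for 6 of the 10 genes in sh_scramble and for 5 in sh_TMEFF2, against 41.8% and 31.3% of all genes. Of these, PER1 was higher with DHT in sh_scramble, as were 21.3% of all genes, and the others were lower, as were 20.5% of all genes in sh_scramble and 15.7% in sh_TMEFF2. The count of 5 called genes in sh_scramble depended on single libraries, since it was 2 without sh_scramble −DHT replicate 1 and 3 without sh_scramble +DHT replicate 1.

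**Figure D2:**
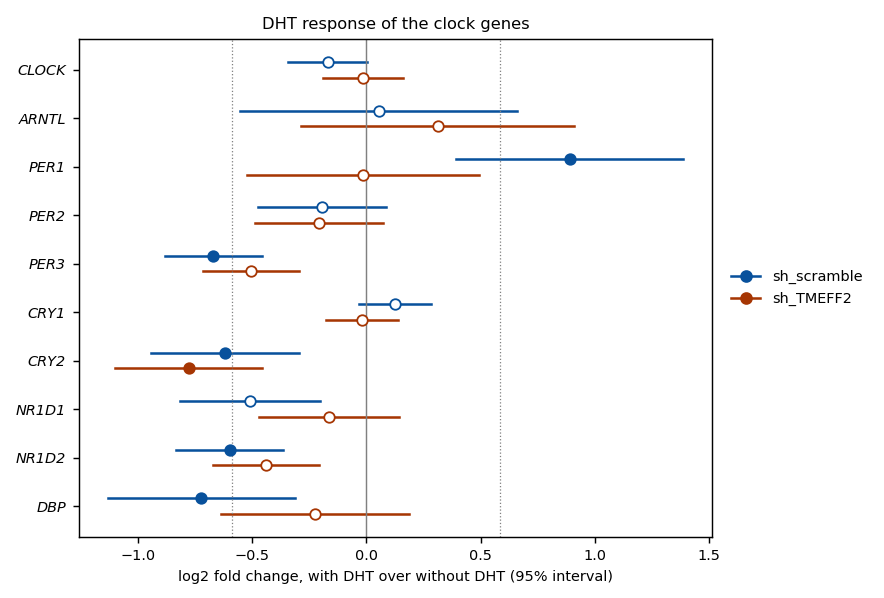
DHT response of the 10 clock genes as the log2 fold change of +DHT over −DHT, with 95% intervals from the edgeR fit, in sh_scramble (blue) and sh_TMEFF2 (brown). Filled points were called, and the dotted lines mark a 1.5-fold change. In sh_scramble PER1 lies to the right at 0.89, while PER3, CRY2, NR1D2 and DBP lie between −0.72 and −0.60, and in sh_TMEFF2 CRY2 at −0.78 is the filled point.

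The activating arm is CLOCK and ARNTL. CLOCK lies on chromosome 4 (55427903 to 55546909, minus strand, 23 exons in its main transcript). Its levels were 63.5, 63.7 and 59.2 CPM in sh_scramble −DHT, 54.1, 60.2 and 51.4 in sh_scramble +DHT, 56.2, 63.3 and 66.2 in sh_TMEFF2 −DHT, and 58.5, 63.8 and 61.6 in sh_TMEFF2 +DHT. The groups overlapped in every comparison, and CLOCK had the narrowest range of group means among the 10 genes, 1.13-fold. Its log2 fold change with DHT in sh_scramble was −0.17 (standard error 0.080, edgeR's adjusted p = 0.139). With library size alone it was −0.24 (edgeR's adjusted p = 0.038), and with the second column of each library −0.38 (edgeR's adjusted p = 0.024), both under 1.5-fold. TMEM165, which overlaps CLOCK by 25495 bases on the other strand, ran from 79.9 to 106.1 CPM and had a log2 value of 0.28 in that comparison (edgeR's adjusted p = 0.0077), opposite in sign to that of CLOCK. ARNTL, on chromosome 11 (13276652 to 13387266, plus strand, 20 exons), encodes the partner of CLOCK. It ran from 6.41 to 11.5 CPM in sh_scramble −DHT, 7.22 to 10.4 in sh_scramble +DHT, 5.44 to 11.3 in sh_TMEFF2 −DHT and 8.72 to 12.9 in sh_TMEFF2 +DHT. The groups overlapped throughout, and the SD between libraries of a group reached 34.5% of their mean, in sh_TMEFF2 −DHT. The 95% interval of its log2 fold change with DHT reached from −0.55 to 0.66 in sh_scramble (value 0.05) and from −0.28 to 0.91 in sh_TMEFF2 (value 0.31), and both intervals reach past a 1.5-fold increase. A change of that size in ARNTL was not detectable at this spread.

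PER1, a repressor of the dimer that glucocorticoids induce directly in many cell types, lies on chromosome 17 (8140472 to 8156506, minus strand, 23 exons). In sh_scramble −DHT its levels were 15.5, 14.5 and 13.1 CPM, and in sh_scramble +DHT they were 28.2, 22.3 and 29.4 CPM. Every library with DHT lay above every library without, and the log2 fold change was 0.89 (1.85-fold, standard error 0.23, edgeR's adjusted p = 0.012). In sh_TMEFF2 −DHT the levels were 10.3, 14.4 and 13.3 CPM, and in sh_TMEFF2 +DHT they were 7.87, 17.7 and 12.1 CPM. The libraries with DHT lay on both sides of those without, and the log2 fold change was −0.01 (standard error 0.23, edgeR's adjusted p = 0.979). With DHT, PER1 was lower in all 3 sh_TMEFF2 libraries than in any sh_scramble library, by 1.08 on the log2 scale (value −1.08, 2.12-fold, standard error 0.23, edgeR's adjusted p = 0.0067), whereas without DHT the difference was −0.18 and the lines overlapped (edgeR's adjusted p = 0.818). The DHT response in sh_TMEFF2 minus that in sh_scramble was −0.90 (standard error 0.33, unadjusted p = 0.016 from edgeR), and it did not pass after adjustment (edgeR's adjusted p = 0.154). Without sh_TMEFF2 +DHT replicate 2, the library with 17.7 CPM, that difference was −1.22 with an adjusted p of 0.029 (edgeR). This was the only 1 of 20 alternatives in which the difference passed. Over the 20 it ran from −1.22 to −0.66, with an adjusted p from 0.029 to 0.302 (edgeR, DESeq2 or limma-voom). A protein-coding gene without a symbol lies across the 5′ end of PER1 on the same strand and shares 5691 bases of its span, and how the authors' counting divided reads between them was not tested.

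PER2 and PER3 are its paralogs in the same repressor complex. PER2, on chromosome 2 (238244044 to 238290102, minus strand, 23 exons), had 18.9, 21.6 and 15.7 CPM in sh_scramble −DHT and 17.2, 17.9 and 14.004 with DHT, and 18.8, 18.5 and 16.5 in sh_TMEFF2 −DHT and 16.2, 14.7 and 15.8 with DHT. The sh_scramble groups overlapped, while in sh_TMEFF2 all 3 libraries with DHT lay below those without. Neither log2 fold change, −0.19 in sh_scramble and −0.21 in sh_TMEFF2, passed (edgeR's adjusted p = 0.298 and 0.339). PER3 lies on chromosome 1 (7784291 to 7845177, plus strand, 22 exons). Its levels fell from 40.9, 45.4 and 41.2 CPM to 28.2, 24.2 and 27.8 CPM with DHT in sh_scramble, a 1.59-fold decrease (log2 value −0.67, standard error 0.097, edgeR's adjusted p = 2.6e-04). In sh_TMEFF2 the levels were 41.8, 45.6 and 35.5 CPM without DHT and 28.9, 29.8 and 27.9 CPM with it. All 6 libraries with DHT lay below all 6 without, and the decrease in sh_TMEFF2 was 1.42-fold (log2 value −0.50, standard error 0.097, edgeR's adjusted p = 0.0055), under the 1.5-fold limit. Without sh_TMEFF2 −DHT replicate 3 it was −0.59 and passed it. PER3 was the member with the smallest adjusted p in sh_scramble, and its call there held under each of the 21 alternatives tried.

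CRY1 and CRY2, the partners of the PER proteins, differed from each other in their response. CRY2, on chromosome 11 (45847118 to 45883248, plus strand, 12 exons), had 25.9, 20.4 and 21.4 CPM in sh_scramble −DHT and 16.4, 14.9 and 13.0 in sh_scramble +DHT. In sh_TMEFF2 the levels were 24.8, 26.03 and 20.6 CPM without DHT and 13.9, 16.3 and 11.4 CPM with it. The highest of the 6 libraries with DHT, 16.4 CPM, was below the lowest of the 6 without, 20.4 CPM. The decrease was 1.53-fold in sh_scramble (log2 value −0.62, standard error 0.15, edgeR's adjusted p = 0.0083) and 1.71-fold in sh_TMEFF2 (log2 value −0.78, standard error 0.15, edgeR's adjusted p = 0.0054). The call in sh_TMEFF2 held under all 21 alternatives. In sh_scramble the change dropped under 1.5-fold without sh_scramble −DHT replicate 1 (−0.51) and without sh_scramble +DHT replicate 3 (−0.53). CRY1, on chromosome 12 (106991364 to 107093549, minus strand, 13 exons), did not pass with DHT in either line, at a log2 value of 0.13 in sh_scramble and −0.02 in sh_TMEFF2 (edgeR's adjusted p = 0.221 and 0.902). Its libraries were close, at 38.6, 38.3 and 34.5 CPM in sh_scramble −DHT, 42.9, 40.5 and 38.2 in sh_scramble +DHT, 31.5, 33.5 and 33.6 in sh_TMEFF2 −DHT, and 31.7, 32.1 and 33.5 in sh_TMEFF2 +DHT. All 6 sh_TMEFF2 libraries lay below all 6 sh_scramble libraries. The difference was −0.18 without DHT (edgeR's adjusted p = 0.308) and −0.32, or 1.25-fold, with it (standard error 0.073, edgeR's adjusted p = 0.0097), which passed the adjusted p but not the fold limit. Without sh_scramble +DHT replicate 1 the adjusted p was 0.056 (edgeR).

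NR1D1 and NR1D2 encode the REV-ERB repressors. NR1D2, on chromosome 3 (23945286 to 23980617, plus strand, 8 exons), had 117.7, 106.7 and 101.8 CPM in sh_scramble −DHT and 61.4, 78.8 and 75.4 with DHT, and 103.4, 116.1 and 94.1 in sh_TMEFF2 −DHT and 70.7, 84.2 and 76.3 with DHT. Again every library with DHT lay below every library without. The decrease was 1.51-fold in sh_scramble (log2 value −0.60, standard error 0.11, edgeR's adjusted p = 0.0013) and 1.36-fold in sh_TMEFF2 (log2 value −0.44, standard error 0.11, edgeR's adjusted p = 0.018). The adjusted p in sh_TMEFF2 lay between 0.0504 and 0.0845 (edgeR) without −DHT replicate 1, −DHT replicate 2, +DHT replicate 1 or +DHT replicate 3 of that line. The value in sh_scramble was just past the 1.5-fold limit, and it was short of it without sh_scramble −DHT replicate 1 (−0.54) and without sh_scramble +DHT replicate 1 (−0.50). NKIRAS1 overlaps its first bases on the other strand, over 1306 bases, and had a log2 value of 0.52 with DHT in sh_scramble (edgeR's adjusted p = 0.0039), opposite in sign to that of NR1D2. NR1D1, on chromosome 17 (40092793 to 40100589, minus strand, 8 exons), had 6.34, 6.37 and 7.68 CPM in sh_scramble −DHT, 4.54, 4.39 and 5.401 in sh_scramble +DHT, 5.62, 5.75 and 5.76 in sh_TMEFF2 −DHT, and 4.81, 4.97 and 5.52 in sh_TMEFF2 +DHT. Its libraries with DHT lay below those without in each line. The log2 value was −0.51 in sh_scramble (1.42-fold, standard error 0.14, edgeR's adjusted p = 0.018) and −0.16 in sh_TMEFF2 (edgeR's adjusted p = 0.511), and neither reached 1.5-fold, except that without sh_scramble +DHT replicate 3 the first was −0.60. The first also had an adjusted p between 0.058 and 0.077 (edgeR) without sh_scramble −DHT replicate 3, +DHT replicate 1 or +DHT replicate 2. NR1D1 shares 1075 bases at its 3′ end with THRA, which encodes a thyroid hormone receptor on the other strand and was more abundant, at 28.3 to 50.2 CPM. THRA had a log2 fold change with DHT of −0.47 in sh_scramble (edgeR's adjusted p = 0.0095) and −0.13 in sh_TMEFF2 (edgeR's adjusted p = 0.518), close to the values of NR1D1. The shared bases are of the whole gene spans, introns included. The counting is not stated to use strand in the sources used here, so reads of exons shared there cannot be told apart. Their part in the NR1D1 values was not tested.

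DBP, the D-box activator and a direct output of the loop, lies on chromosome 19 (48630030 to 48637379, minus strand, 4 exons). Its levels were 9.01, 7.35 and 7.59 CPM in sh_scramble −DHT and fell to 3.89, 5.08 and 5.55 CPM with DHT, without overlap, which was 1.65-fold (log2 value −0.72, standard error 0.19, edgeR's adjusted p = 0.013). Behind these values are 77 to 199 counts per library. In sh_TMEFF2 the levels were 6.11, 5.002 and 5.89 CPM without DHT and 5.69, 3.70 and 5.16 CPM with it, which overlapped (log2 value −0.22, edgeR's adjusted p = 0.50). Without DHT all 3 sh_TMEFF2 libraries were already below the sh_scramble libraries, by −0.49 on the log2 scale (standard error 0.19, edgeR's adjusted p = 0.256), which did not pass. The difference between its responses in the lines was 0.50 (standard error 0.27, edgeR's adjusted p = 0.374). The decrease in sh_scramble had an adjusted p of 0.058 without sh_scramble −DHT replicate 1 and 0.053 without sh_scramble +DHT replicate 1 (edgeR). SPHK2 overlaps DBP by 688 bases on the other strand, at 20.6 to 30.6 CPM, and its log2 value with DHT in sh_scramble was 0.07 (edgeR's adjusted p = 0.698).

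**Figure D3:**
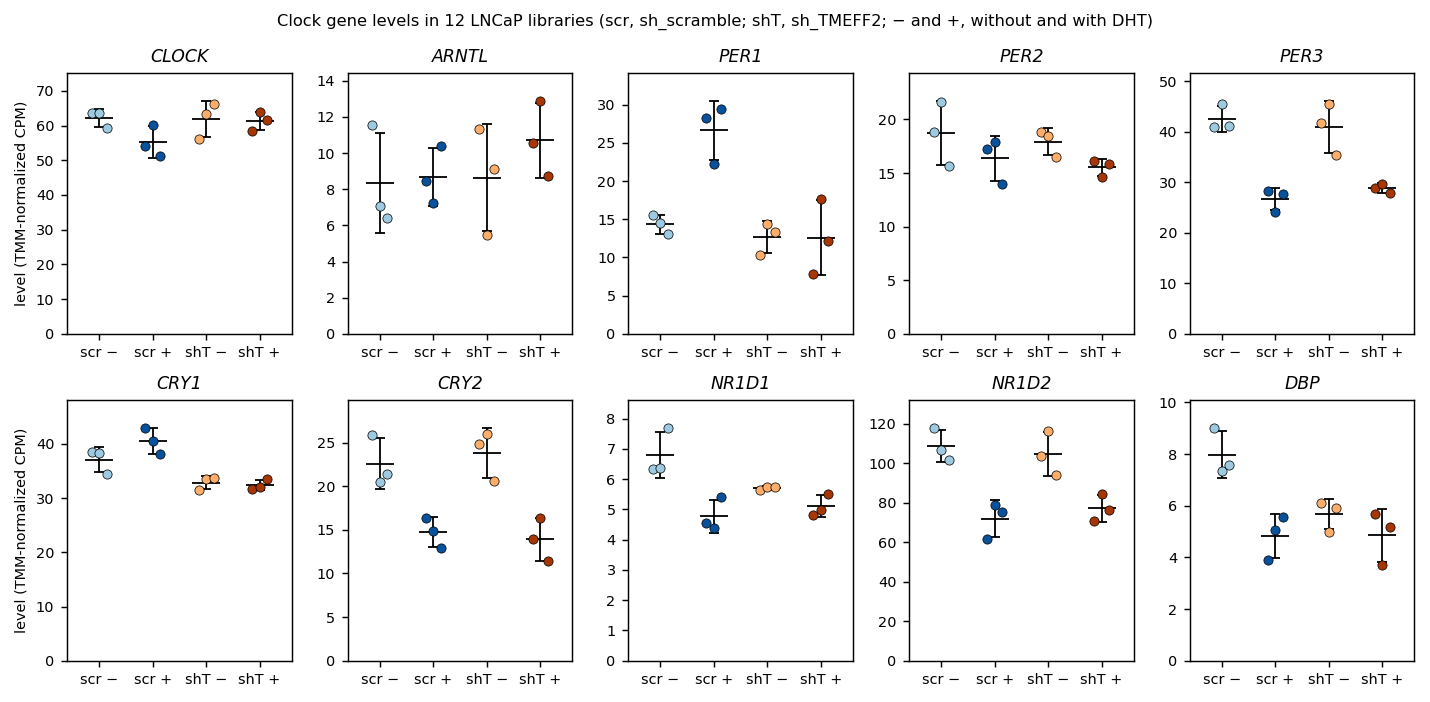
Level of each clock gene in each of the 12 libraries (TMM-normalized CPM, axes from 0), with the mean of 3 libraries as a horizontal line and the SD as error bar. PER1 is high only in the 3 sh_scramble +DHT libraries, at 22.3 to 29.4 CPM, whereas CRY2, PER3 and NR1D2 are lower in all 6 libraries with DHT than in all 6 without.

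Between the lines, few of the clock genes were called, as few of all genes were. Without DHT, 0 of the 10 were called with edgeR, and 0 with DESeq2 and limma-voom, while 2 (CRY1 and DBP) had an unadjusted p under 0.05 in edgeR. Of all genes, 0.571% were called in this comparison. CRY1, NR1D1 and DBP were lower in all 3 sh_TMEFF2 libraries than in the sh_scramble libraries, that is, 3 of 10 genes, where the groups did not overlap for 18.5% of all genes and 9.18% were lower in this way. With DHT, 1 of the 10 was called, PER1, where 6.77% of all genes were called, 3.74% as lower. PER1 and CRY1 passed the adjusted p at any fold, as 16% of all genes did, 9.09% as lower. Neither overlapped between the lines, against 32.5% of all genes, with 17% as lower. The median log2 difference between the lines was −0.06 without DHT and 0.05 with it, beside 0.00 in both cases for all genes. These comparisons share their libraries with the DHT comparisons and are not independent of them. When the 2 DHT responses were tested against each other, 0 of the 10 passed an adjusted p of 0.05 with edgeR, and likewise 0 with DESeq2 and limma-voom, 1 (PER1) had an unadjusted p under 0.05 in edgeR, and 4.94% of all genes passed. The responses of NR1D1 and DBP were smaller in size in sh_TMEFF2, by 0.35 and 0.50, which did not pass either (edgeR's adjusted p = 0.417 and 0.374).

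**Figure D4:**
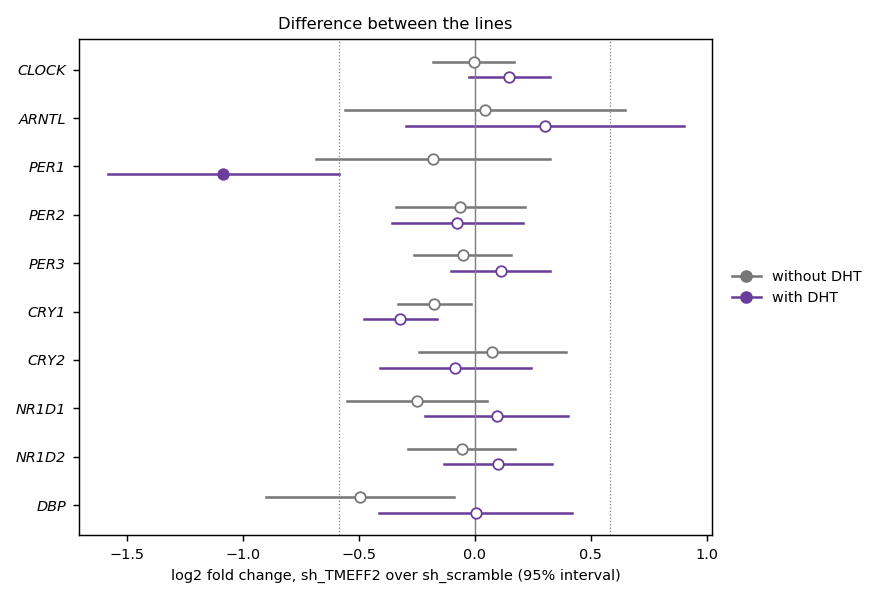
Difference between the lines for the 10 clock genes as the log2 fold change of sh_TMEFF2 over sh_scramble, with 95% intervals from the edgeR fit, without DHT (grey) and with DHT (purple). Filled points were called and dotted lines mark a 1.5-fold change, and PER1 with DHT, at −1.08, is the only filled point.

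A wider list of 23 other clock-related genes was read in the same fit, and 21 of them were tested. RORB and FBXL21 were at 5 counts or fewer in every library and were not. With DHT, 1 of the 21 was called in each line, where 11.9% and 4.88% of all genes were, and the medians were −0.10 in sh_scramble and −0.12 in sh_TMEFF2. The called gene in sh_scramble was CIART, a repressor that the CLOCK and ARNTL dimer activates. It fell from 10.9, 12.7 and 11.1 CPM to 5.85, 6.88 and 6.802 CPM (log2 value −0.83, standard error 0.15, edgeR's adjusted p = 0.0011). In sh_TMEFF2 its libraries had 9.37, 8.50 and 9.51 CPM without and 5.93, 8.26 and 6.14 CPM with DHT, also without overlap (log2 value −0.43, edgeR's adjusted p = 0.072), and without sh_TMEFF2 +DHT replicate 2 the value was −0.59 with an adjusted p of 0.025 (edgeR). Over 21 alternatives that value ran from −0.59 to −0.29, with an adjusted p from 0.025 to 0.434 (edgeR, DESeq2 or limma-voom). The called gene in sh_TMEFF2 was TEF, a D-box factor related to DBP. It had 26.3, 28.7 and 24.8 CPM without DHT and 17.2, 19.6 and 15.7 CPM with DHT (log2 value −0.60, standard error 0.14, edgeR's adjusted p = 0.014). In sh_scramble TEF was at 31.1, 28.7 and 24.0 CPM without and 23.1, 21.8 and 16.5 CPM with DHT (log2 value −0.45, edgeR's adjusted p = 0.029), under 1.5-fold, and that p lay between 0.076 and 0.117 (edgeR) without −DHT replicate 1, −DHT replicate 2 or +DHT replicate 3. The call in sh_TMEFF2 was lost without sh_TMEFF2 −DHT replicate 2 (adjusted p = 0.058 from edgeR) and without sh_TMEFF2 +DHT replicate 3 (adjusted p = 0.075 from edgeR).

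By role, the adjusted p alone was passed in sh_scramble by 1 of 3 other repressors (CIART), 1 of 3 other D-box factors (TEF), 1 of 4 outputs (NAMPT) and 0 of 2 further activators. Over the whole list 8 of 21 passed, where 27% of all genes did. Genes of PER and CRY turnover went both ways. The kinases CSNK1E and GSK3B were lower (−0.27 and −0.29), and FBXW11, which belongs to a ubiquitin ligase for PER proteins, was higher (0.30). In sh_TMEFF2, CSNK1E and GSK3B were again lower, at −0.30 and −0.32 (edgeR's adjusted p = 0.019 and 0.0062), and with TEF and WEE1, a cell cycle kinase (0.36, edgeR's adjusted p = 0.020), they made up the 4 of 21 that passed, where 13.1% of all genes did. Except for CIART in sh_scramble and TEF in sh_TMEFF2, these changes were under 1.5-fold.

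Between the lines with DHT, 2 of the 21 were called, both lower in sh_TMEFF2, where 6.77% of all genes were called and 3.74% as lower. BHLHE40, a repressor that competes for E-boxes, had 22.2, 39.8 and 44.2 CPM in sh_scramble +DHT and 12.1, 15.4 and 14.5 CPM in sh_TMEFF2 +DHT (log2 value −1.34, standard error 0.32, edgeR's adjusted p = 0.013). The call was lost, at an adjusted p of 0.054 (edgeR), without sh_TMEFF2 +DHT replicate 1. Its DHT response did not pass in either line, at 0.41 in sh_scramble and −0.15 in sh_TMEFF2 (edgeR's adjusted p = 0.369 and 0.811). With a replicate block the response of BHLHE40 in sh_scramble was 0.42 with an adjusted p of 0.045 (edgeR), under 1.5-fold. NAMPT, which encodes an enzyme of NAD synthesis that the clock drives, had 294.6, 336.4 and 273.1 CPM in sh_scramble +DHT and 199.6, 196.3 and 187.5 CPM in sh_TMEFF2 +DHT (log2 value −0.63, standard error 0.11, edgeR's adjusted p = 0.0019), and this was −0.53, short of 1.5-fold, without sh_scramble +DHT replicate 2. Without DHT, 0 of the 21 were called with edgeR, and 0 with DESeq2 and limma-voom, while 4 had an unadjusted p under 0.05 in edgeR, and 0.571% of all genes were called. WEE1 passed the adjusted p there, higher in sh_TMEFF2 by 0.45 on the log2 scale (edgeR's adjusted p = 0.035), and again with DHT, by 0.58, which is short of 1.5-fold (edgeR's adjusted p = 7.2e-04).

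**Figure D5:**
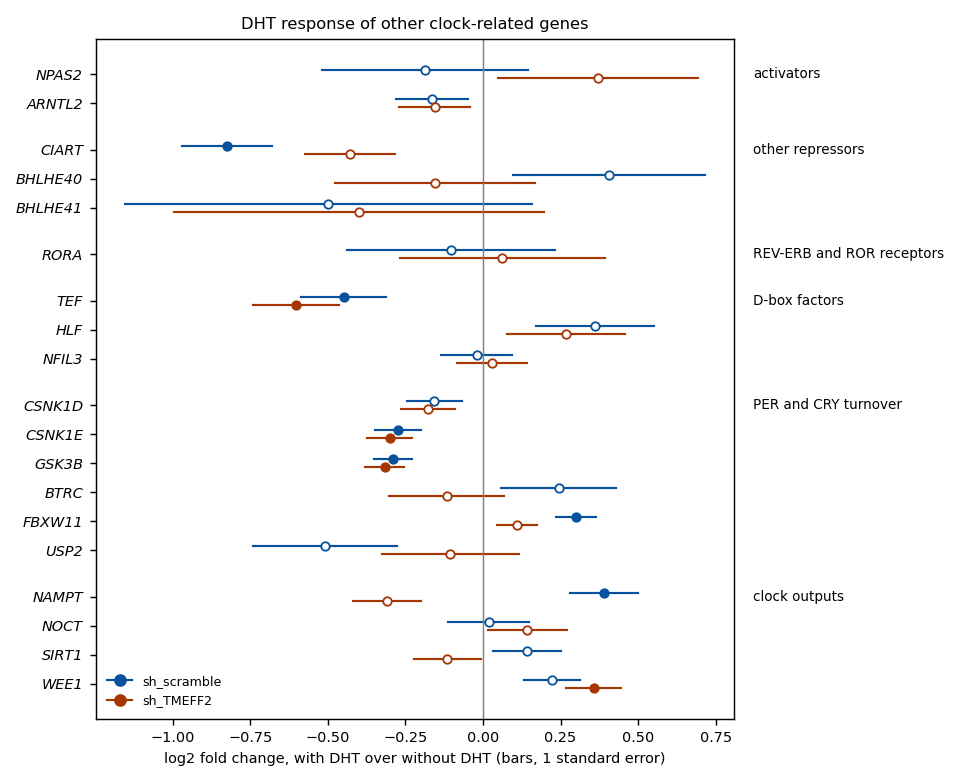
DHT response of 19 of the 21 other clock-related genes tested, ordered by role, as the log2 fold change of +DHT over −DHT with 1 standard error, in sh_scramble (blue) and sh_TMEFF2 (brown). Filled points passed an adjusted p of 0.05 (edgeR) at any fold change, 6 in sh_scramble and 4 in sh_TMEFF2, the 2 genes not drawn passed in sh_scramble too, and CIART in sh_scramble is the farthest from 0 at −0.83.

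The 3 members with the widest range over the 4 group means of log2 CPM were PER1 (2.21-fold), CRY2 (1.72-fold) and DBP (1.65-fold). The genes whose centred group means lay nearest to theirs, by Euclidean distance over the 4 groups, were read from all 15419 genes tested. Nearest to PER1 was SLC22A31, at a distance of 0.037, with geometric means of 22.7 CPM in sh_scramble −DHT, 43.0 in sh_scramble +DHT, 19.9 in sh_TMEFF2 −DHT and 19.3 in sh_TMEFF2 +DHT. CPSF1P1 (0.064) and MRPS18AP1 (0.093) followed, both annotated pseudogenes whose reads may belong to other copies. Nearest to CRY2 were SYNE1 (0.072), KCNQ1 (0.072) and NKAPP1 (0.081), and KCNQ1 went from 6.14 to 3.81 CPM with DHT in sh_scramble and from 6.10 to 3.71 in sh_TMEFF2. Nearest to DBP were IGIP (0.036), FXYD5 (0.041) and SLC38A3 (0.066), of which IGIP had 36.6, 21.97, 25.2 and 21.9 CPM in the same order of groups. Some of these genes were at low levels. By geometric mean over the groups, FXYD5 lay at 0.339 to 0.555 CPM, SLC38A3 at 0.535 to 0.885 and MRPS18AP1 at 0.502 to 1.07. The 4 group means are shared by all these genes, and the distances are descriptions only.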

How the data were processed

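RNA-seq was measured in 12 LNCaP libraries, 3 in each of 4 groups taken from the sample titles. Per the labels and the methods, the authors checked reads with FastQC, filtered contaminants, trimmed with Trimmomatic, quantified transcripts with kallisto 0.42.3 on the GRCh38 transcriptome, and deposited expected counts per gene (lengthScaledTPM), which depend on estimated transcript lengths. They used DESeq2. Of its 24 columns, 0 lacked a sample, and every library had 2. The 2 columns differed by less (2.48 to 2.77 times sampling noise, the median chi-square over genes against its expected median, in 12 pairs) than the first columns of replicates did (4.07 to 5.04, 12 pairs), and were summed as 1 replicate.

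Rounded sums were tested with edgeR 4.0.16 under R 4.3.3 (TMM, factors 0.955 to 1.04; filterByExpr, minimum count 10 and total 15; 15419 genes; 4 group means over 12 libraries; quasi-likelihood test; Benjamini-Hochberg). Calls needed 1.5-fold and an adjusted p of 0.05, and differences of responses the adjusted p alone. The standard error is the log2 value over the square root of F. Alternatives were DESeq2 1.42.0, limma-voom 3.58.1, no TMM, a mean above 5 CPM, no filter, the 6 libraries compared, a replicate block, each library left out, and 1 column per library. In simulated counts for DHT in sh_TMEFF2, 145 of 197 genes changed 2-fold (73.6%) were recovered among 15213, with 2 wrong calls. The simulated spread followed the trend with abundance and was not set gene by gene. The simulation therefore does not give the recovery of changes under 2-fold or of genes with a wider spread. P-values measure the spread between these libraries, and the repeats come from 2 transductions. All 12 libraries went into each fit, and log2 CPM used a prior count of 2.

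The members and lists were chosen with earlier results of these data known. Named genes are the 10 members, the genes of the wider list called in any comparison, the 3 nearest patterns of the 3 members with the widest range, TMEFF2, KLK3 and FKBP5, and genes that overlap a member. CSNK1E, GSK3B, FBXW11, WEE1, RORB and FBXL21 were named after their values were seen, because of the small counts they belong to, and some genes of the list are not reported here. Positions are from GENCODE v44 on GRCh38, the build of the submitters' notes, whose gene models may differ from the authors', and promoters are from RefSeq (GRCh38.p14). Overlaps between genes are of whole gene spans, introns included, whereas the counts come from transcripts.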

Additional observations from a re-analysis of the deposited data

Results flagged for a closer look

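NAMPT, an output of the clock, was the gene of the wider list whose DHT response differed between the lines by the test of the difference itself. It was the 1 of 21 tested genes that passed, where 4.94% of all genes did. It had 245.0, 229.7 and 215.4 CPM in sh_scramble −DHT and 294.6, 336.4 and 273.1 CPM in sh_scramble +DHT, without overlap (log2 value 0.39, edgeR's adjusted p = 0.020, and 0.052 to 0.084 without sh_scramble −DHT replicate 2, −DHT replicate 3 or +DHT replicate 2). In sh_TMEFF2 it had 198.9, 281.5 and 242.8 CPM without DHT and 199.6, 196.3 and 187.5 CPM with it, which overlapped (log2 value −0.31, edgeR's adjusted p = 0.086, and 0.021 without sh_TMEFF2 −DHT replicate 1). The response in sh_TMEFF2 minus that in sh_scramble was −0.70 (standard error 0.16, edgeR's adjusted p = 0.022). It had an adjusted p between 0.054 and 0.058 (edgeR) without sh_scramble −DHT replicate 2, sh_scramble −DHT replicate 3, sh_scramble +DHT replicate 2 or sh_TMEFF2 +DHT replicate 3, and the range of the adjusted p over its 20 alternatives was 7.4e-04 to 0.068. The cause was not tested.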

How the results depend on the processing

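Calls of some clock genes changed with the processing, and not all of these lay near a limit. The difference of responses of PER1 had an adjusted p of 0.154, and 0.029 without sh_TMEFF2 +DHT replicate 2 (edgeR). With each library left out in turn, the number of the 10 called ranged from 2 to 5 for DHT in sh_scramble, 1 to 2 for DHT in sh_TMEFF2 and 0 to 1 for the difference of responses, and stayed at 0 and 1 between the lines without and with DHT. For the 21 other clock-related genes the ranges were 1 to 2, 0 to 2, 0 to 1, 0 to 0 and 2 to 3 in the same order. With the first of the 2 columns of each library alone, 2 members were called for DHT in sh_TMEFF2 (CRY2 and PER3, at −0.61), NR1D2 in sh_scramble was −0.49 and lost its call, and the other clock-related genes called were 2 for DHT in sh_scramble, 0 for DHT in sh_TMEFF2 and 0 for the difference of responses. The adjusted p alone was also lost with the first column by NR1D2 in sh_TMEFF2 (0.131), NR1D1 (0.087), TEF (0.145) and NAMPT (0.098) in sh_scramble, and with the second column by CRY1 between the lines with DHT (0.186), all from edgeR. With the 6 libraries compared it was 0.056 for NR1D1 and 0.054 for TEF in sh_scramble, and with no filter 0.051 for NR1D1. The second column gave 2 for DHT in sh_TMEFF2. Library size without TMM gave 2 for DHT in sh_scramble, and put NAMPT between the lines with DHT at −0.57, short of 1.5-fold. A mean above 5 CPM gave 2 for DHT in sh_scramble and 4 between the lines with DHT, and DESeq2 gave 4 there. Values close to 0 changed sign, CLOCK with DHT in sh_scramble to 7e-04 with the first column, ARNTL with DHT in sh_scramble to −0.0126 without TMM and from −0.10 to 0.36 over the libraries left out, PER1 with DHT in sh_TMEFF2 to 0.0294 with the second column and from −0.33 to 0.23 over the libraries left out, and CRY1 with DHT in sh_TMEFF2 to 0.0037 with the second column and from −0.048 to 0.0058 over the libraries left out. The causes were not tested. With a replicate block, the other clock-related genes called were 1 between the lines without DHT and 5 with DHT, no member's call changed, BHLHE40 with DHT in sh_scramble was 0.42 with an adjusted p of 0.045 (edgeR) and CIART with DHT in sh_TMEFF2 −0.44 with 0.046, both under 1.5-fold, and of all genes 144 rather than 88 differed without DHT. The replicate numbers were not taken to pair the samples, which the design does not state. Deviations of same-numbered libraries correlated at −0.0017 to 0.17 (median 0.072), with 3 of 18 pairs over 0.1. Those of other numbers correlated at −0.14 to 0.066 (median −0.028), with 0 of 36 pairs over 0.1. Each of the 12 libraries correlated best with its own number, so the data hold a part shared by number that the main fit leaves out. Of all comparisons of 1 gene with its main value, 821 were the same in direction and call, 12 changed sign, 18 lost a call and 6 gained one. The 6-library alternative was not run for the difference of responses, which needs all 12 libraries. Depth is lowest for DBP (77 to 199 counts per library) and NR1D1 (90 to 157).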
